A study of Danio rerio with 9 samples.

Results

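The vehicle-treated zebrafish embryo at 48 hours post fertilization (hpf) is described here from its polyadenylated RNA. The libraries are the 3 columns named Control in the deposited table of raw read counts, out of 9 libraries in the series. They hold values for all 32434 genes of the table, of which 26228 had at least 1 read in a Control library. Each Control library came from a vial of 20 whole embryos of the 5D wild-type line kept in 2 mL with 1% dimethyl sulfoxide (DMSO), the solvent used to carry the test compounds, from 6 to 48 hpf. The vials stood on a rocker in the dark, and the labels describe them as independent biological replicates. The label gives 37 °C, far above the temperature usual for zebrafish, and this could not be checked. Embryos came from group spawns on 3 days, but the replicate numbers are not tied to those days, so vial and day of spawning cannot be told apart. The other 6 libraries belong to embryos exposed to 2 oxygenated polycyclic aromatic hydrocarbons in the same vehicle and were not analysed here. No embryo without DMSO was analysed here, so the values are those of embryos in vehicle.

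At this age the zebrafish embryo enters the hatching period. The trunk muscle contracts, the heart beats, blood circulates, the eye is pigmented and its lens fibres are forming, and the embryo still lives on its yolk, whose lipids are packed into lipoproteins by the syncytial layer around it. The intestine and the exocrine pancreas have yet to start digesting food, and the adaptive immune system and the gonads are still rudimentary. A whole-embryo library mixes all of these tissues. In such a mixture fewer cells of a type and less RNA per cell cannot be told apart.

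Control 1 held 9620666 counted reads, Control 2 held 14435626 and Control 3 held 13830778. Levels are given as CPM, a gene's reads over all gene reads of its library times 1000000, so that 3 reads, the limit that a count of 0 allows, were worth 0.312, 0.208 and 0.217 CPM. A longer transcript gives more reads, and transcript lengths were not at hand. A value of CPM or a share of reads therefore compares a gene with itself between vials, and ranks genes by reads and not by number of transcripts. The libraries differed from each other by more than counting error, with a chi-square per gene of 3.07 to 6.27 over 20116 to 20468 genes, so none was a copy of another. The most-read genes weigh most in this chi-square, which was not taken without them, so it does not rank the pairs of libraries. Across the 10043 genes with at least 10 CPM on average, Pearson's r of log2 CPM was 0.9913 between Control 1 and Control 2, 0.993 between Control 1 and Control 3, and 0.9928 between Control 2 and Control 3. These correlations are across genes, which are not independent replicates, and they share the large differences between genes.

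The reads were concentrated in few genes. The most-read genes that together held 50% of the reads numbered 419 in Control 1, 387 in Control 2 and 450 in Control 3. The 10 genes with the most reads held 18.01%, 19.31% and 17.00% of the reads, and the 1000 genes with the most reads held 61.6%, 62.4% and 61.0%. At the other end, 6206 genes (19.1%) had no read in any vial and 8133 averaged above 0 and up to 1 CPM, taking 0.209% of the reads. At least 1 CPM in all 3 vials was reached by 17398 genes (53.6%). The 76 genes with a mean of 1000 CPM or more took 33.8% ± 1.12 of the reads, and the 1468 genes between 100 and 1000 CPM took 34.4% ± 0.553 (SD, n = 3). Of the genes without a read, 4586 had no gene symbol, which is 39.3% of the 11665 genes without a symbol, against 7.8% of the 20769 genes with one.

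**Figure D1:**
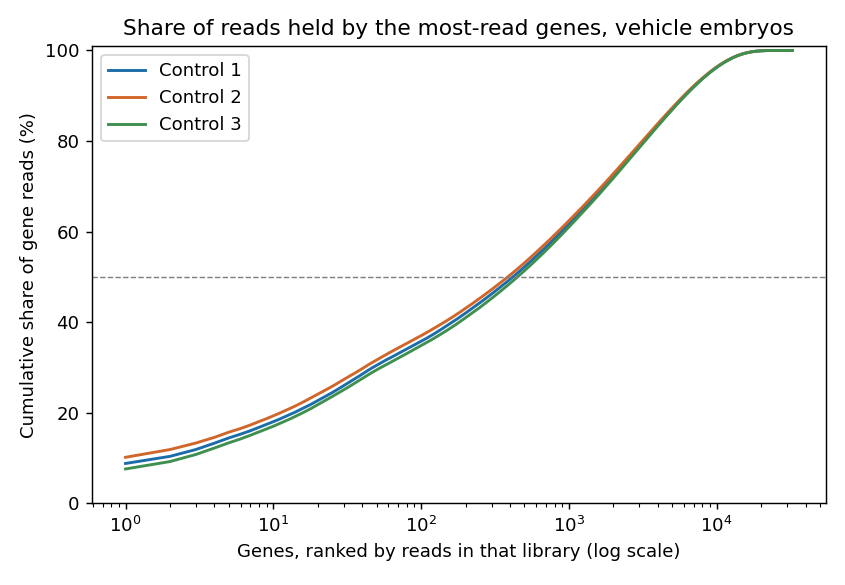
Cumulative share of gene reads (%) against the number of genes, ranked within each library by reads (log scale), with 1 line for each vehicle vial and a dashed line at 50%. The 3 lines lie close together, with Control 2 on top, and cross 50% at 387 to 450 genes.

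A gene without a symbol, ENSDARG00000080337, had by far the most reads. It stood at 87870 CPM in Control 1, 101509 CPM in Control 2 and 75744 CPM in Control 3, so that its share of the reads was highest in Control 2 and lowest in Control 3. What kind of RNA it encodes was not identified from the tables used here. Because every share is taken over all gene reads, it lowers the shares of all other genes most in Control 2. The gene without a symbol that came next was ENSDARG00000037840, at 13540 ± 965 CPM (SD, n = 3).

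Among genes with a symbol the most reads went to muscle, skin, mitochondria and yolk lipoprotein. The fast muscle myosin heavy chain gene myhz1.1 stood at 15196, 17115 and 16355 CPM in Control 1, 2 and 3. The keratin gene krt4, an intermediate filament gene of the outer skin, stood at 15725, 14508 and 15730 CPM, and the mitochondrial cytochrome c oxidase gene MT-CO1 at 11495, 11397 and 11460 CPM. Control 2 was the highest vial for the myosin and the lowest for the keratin, while MT-CO1 was nearly level. The next in order were atp2a1, the calcium pump of the muscle's sarcoplasmic reticulum (8170 ± 130 CPM), apobb.1, an apolipoprotein B of yolk and liver lipoproteins (7991 ± 474 CPM), and the translation elongation factor gene eef1a1l1 (7489 ± 99.1 CPM, all SD, n = 3). The remaining places among the 25 most-read genes with a symbol were held by 11 further genes of the contractile apparatus or its energy supply, by 4 more genes of the mitochondrial genome, by the chaperone genes HSPA8 (ENSDARG00000068992) and HSP90AB1, by the collagen gene col1a1a and by the cytoskeletal actin gene actb2.

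Genes were grouped into 36 lists of tissue markers and processes and 33 gene families, which together covered 1919 genes and 33.9% ± 0.24 of the reads. A list counts only the symbols that were matched, so its full share may be higher. Skeletal muscle was the list with the largest share, with 42 genes that took 8.94%, 9.15% and 9.06% of the reads in Control 1, 2 and 3. Of these, 40 had at least 1 CPM in every vial, and their median was 1008 CPM. Thick filaments were represented first by the heavy chains. The 12 myosin heavy chain genes of muscle took 2.93%, 3.28% and 3.10% of the reads, of which myhz1.1 alone gave 52.3%. Without the 10 most-read genes the family took 1.81%. After it came myhz1.2 (5082 ± 98.4 CPM), myhz1.3 (4407 ± 303 CPM) and myhz2 (4331 ± 240 CPM), further fast chains. These genes are near-identical neighbours whose reads may be shared, so their single values are uncertain while their sum is less so. myh7bb was the listed member of this family without a read.

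Of the light chains, which bind the neck of the myosin head, MYL11 (ENSDARG00000053254) had the most reads, at 5411, 5447 and 5178 CPM, followed by MYL1 (ENSDARG00000017441) at 2852, 3202 and 2775 CPM. Control 2 was the highest vial for both. The giant proteins that set the sarcomere's length and elasticity gave 5768 ± 169 CPM for TTN (ENSDARG00000028213), 4938 ± 198 CPM for its second copy TTN (ENSDARG00000000563) and 3564 ± 258 CPM for NEB, nebulin. These transcripts are among the longest known, which raises their reads. On the thin filament, tpma, the main muscle tropomyosin, stood at 6770, 6355 and 6447 CPM. The fast troponin T gene TNNT3 (ENSDARG00000068457) stood at 3271, 3506 and 2931 CPM and the fast troponin C gene TNNC2 at 2447, 2360 and 2245 CPM. The skeletal alpha-actin gene ACTA1 (ENSDARG00000055618) varied least of these, at 3290, 3288 and 3327 CPM.

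For the supply of energy, the creatine kinase gene ckmb stood at 3365 ± 163 CPM. The parvalbumins, small proteins that take up calcium in fast fibres, took 0.391% ± 0.028 of the reads in 9 genes, with 2337 ± 201 CPM for pvalb1 and 1299 ± 67.5 CPM for pvalb2. The regulators of the muscle fate had far fewer reads, with 29.3 ± 4.28 CPM for MYOD1 and 4.03 ± 0.32 CPM for MYF6; both were picked out after their values were seen. The list of heart muscle genes took 1.12% ± 0.0382 of the reads, but the titin copies gave nearly all of it, and it took 0.0444% with exact symbols only, that is, without genes matched through a capital symbol that lacks the duplicate suffix. The 14 heart genes that no other list held took 0.0461%. The listed vmhc, myh7l, nkx2.5, gata4 and csrp3 were not matched by symbol, so the heart's full share may be higher. Among the heart genes, actc1a, an actin of the developing heart and muscle, stood at 184 ± 14.2 CPM, MYH6, an atrial myosin heavy chain, at 124 ± 5 CPM, and myh6, a second gene of that name, at 26.65 ± 1.06 CPM (ENSDARG00000090637).

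Skin was the next tissue by reads. The 33 epidermis genes took 2.391%, 2.299% and 2.421% of the reads, and krt4 alone gave 64.6% of that. The other keratins of the list followed at a distance in reads, with krt5 at 2230 ± 58.2 CPM, krt91 at 1302 ± 66 CPM and krt8 at 1238 ± 77.7 CPM. cyt1l, a type I keratin gene, was less even, with 754 CPM in Control 1, 1007 CPM in Control 2 and 922 CPM in Control 3, so that Control 1 was the low vial. Without the 10 most-read genes the share of the epidermis list was 1.02%, since krt4 is among them.

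Connective tissue was carried by fibrillar collagens. The 50 collagen genes took 1.95%, 1.88% and 2.07% of the reads, with Control 3 the highest vial. col1a1a, an alpha chain of the type I collagen of skin and bone, stood at 4369, 4143 and 4613 CPM. Its partners COL1A2 and COL1A1 averaged 2410 ± 129 and 2312 ± 119 CPM. COL2A1 (ENSDARG00000069093), the type II collagen of cartilage and of the notochord sheath, stood at 2395, 2244 and 2519 CPM, and COL11A1, a minor fibrillar collagen of cartilage, at 1100, 1143 and 1191 CPM. All 5 were highest in Control 3. The cartilage and bone list took 1.77% ± 0.0757 of the reads (1.08% with exact symbols only), and its markers of mature bone were nearly without reads, with bglap, osteocalcin, at 0.02 ± 0.04 CPM and spp1, osteopontin, at 0.48 CPM, both picked out after their values were seen.

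The notochord list took 0.379% ± 0.017 of the reads (0.0751% with exact symbols only), but 0.0206% was left when genes of other lists, mainly COL2A1, were taken out. Its own genes included emilin3a, an extracellular matrix gene, at 63.45 ± 1.7 CPM. The early notochord regulators TBXT and noto averaged 0.48 and 0.25 CPM and were picked out after their values were seen.

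Yolk and liver gave 1.88%, 1.91% and 1.91% of the reads through 30 genes, and 42.1% of that came from apobb.1, which had 7616, 7834 and 8523 CPM, with Control 3 on top. The structural protein of lipoprotein particles was also seen in APOB (1595 ± 116 CPM). The smaller exchangeable apolipoproteins were led by apoa1a, the main protein of high-density lipoprotein, at 2294, 2287 and 2116 CPM, and by apoa2 at 1735, 1471 and 1321 CPM, both lowest in Control 3. apoeb, a ligand of lipoprotein receptors, was even, at 1081, 1138 and 1095 CPM. The whole family of 17 apolipoprotein genes took 1.67% ± 0.0191 of the reads, and 1.06% without the 10 most-read genes. Secreted liver proteins were present at lower read numbers, among them the complement gene c3a.1 (764.62 ± 27.55 CPM), the transferrin gene tfa (656 ± 76.7 CPM) and the fibrinogen gene FGB (229 ± 32 CPM). Other liver markers were close to 0, with fabp10a, the liver fatty acid binding protein, at 0.94 ± 0.31 CPM and TTR, transthyretin, at 0.05 ± 0.08 CPM. The genes from c3a.1 to TTR were picked out after their values were seen.

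Blood was seen through globins and other red cell genes. The embryonic alpha globin hbae3 stood at 695, 654 and 684 CPM and gave 92.2% of the reads of the matched globins. The beta globin hbbe3 stood at 23.9, 25.4 and 24.5 CPM. The globins that were not matched include hbae1, hbbe1, hbbe1.1 and hbbe2, so alpha and beta globins cannot be compared here. Only 7 of the 14 listed globins could be matched to a gene of the table by symbol, so the full globin share may be higher than the 0.0735% ± 0.00257 found. Globin copies are near-identical and may share reads. Other red cell genes took 0.0869% of the reads, led by SPTB, the spectrin of the red cell skeleton (238 ± 17.6 CPM), and RHAG, an ammonium channel of red cells and ionocytes (128 ± 6.85 CPM). alas2, the first enzyme of haem synthesis in red cells, stood at 55.9 ± 4 CPM and was picked out after its values were seen.

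The white blood cell genes that were matched by symbol had few reads. Not matched were mpx, cpa5 and csf1ra of the myeloid list and lck and tcra of the lymphoid list, so the full shares may be higher. The myeloid list took 0.0131% of the reads, with the neutrophil lysozyme gene lyz at 17.2, 12.1 and 17.1 CPM, Control 2 being the low vial. The lymphoid list took 0.00194% (0.0008% with exact symbols only), and 8 of its 13 genes averaged under 1 CPM. RAG1, the recombinase of antigen receptor genes, stood at 1.35, 1.59 and 1.3 CPM, while RAG2, picked out after its values were seen, averaged 0.50 CPM and the immunoglobulin gene igic1s1 had no read in any vial. RAG1 stood above the 3-read limit in all vials and is the fifth of the list by reads. The endothelium list took 0.0398% (0.0195% with exact symbols only). Its symbols kdrl, pecam1, flt4, etv2, egfl7 and clec14a were not matched, so its full share may be higher. The cadherin gene of vessel walls, cdh5, stood at 36.8, 30.8 and 30.3 CPM and the scavenger receptor gene stab2 at 34.1, 36.9 and 42.1 CPM.

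In the eye, lens genes outweighed photoreceptor genes by reads. The 57 lens genes took 0.567%, 0.509% and 0.543% of the reads, with Control 2 lowest. The beta crystallins, structural proteins of the lens fibre, led: cryba1b stood at 663, 605 and 657 CPM, crybb1l1 at 542, 488 and 551 CPM and CRYBA2 (ENSDARG00000030349) at 514, 455 and 479 CPM. cryba1l1 was less even, at 411 CPM in Control 1, 313 CPM in Control 2 and 395 CPM in Control 3. All 4 had their lowest value in Control 2. Of the gamma crystallins, the many near-identical crygm2d copies, whose reads may be shared, ran from 21.9 CPM for crygm2d11 to 211 CPM for crygm2d10. Other gamma crystallins were close to 0, and crygm2a had no read in any vial. The small chaperone crystallin CRYAA stood at 40.5 ± 4.92 CPM and CRYAB (ENSDARG00000042621) at 0.05 ± 0.04 CPM; these last values were picked out after they were seen.

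Photoreceptor genes took 0.0463%, 0.0456% and 0.0444% of the reads in 27 genes, and 48.3% of that came from crx, a transcription factor of photoreceptor and bipolar cell precursors, at 218, 223 and 217 CPM. A second gene written CRX (ENSDARG00000043483) stood at 61.1 ± 2.14 CPM, and NR2E3, a nuclear receptor that directs rod fate, at 27.8 ± 1.69 CPM. The visual proteins themselves had fewer reads. The red cone opsin gene opn1lw2 stood at 12.2, 9.70 and 9.11 CPM. GNAT1 and GNAT2, the transducins of rods and cones, averaged 3.64 and 2.41 CPM, and the second red opsin opn1lw1 averaged 0.02 CPM; these 3 were picked out after their values were seen. Over the 28 opsin genes of all kinds, 6 reached 1 CPM in every vial, and opn7a had no read.

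Neural genes were numerous, and their summed share was nearly even between vials. The 42 neuron genes took 0.616%, 0.597% and 0.613% of the reads, and 41 of them had at least 1 CPM in every vial. ELAVL3, an RNA-binding protein of young neurons, stood at 999, 955 and 1016 CPM, tubb5, a neuronal beta tubulin, at 858, 897 and 879 CPM, and atp1a3a, the sodium pump of neurons, at 487, 476 and 503 CPM. rtn1a, a reticulon of the neuronal endoplasmic reticulum, averaged 458.34 ± 13.45 CPM and STMN1 (ENSDARG00000033655), a regulator of microtubules, 328 ± 11.7 CPM. Transmitter genes had fewer reads: GAD2, which makes GABA, stood at 117 ± 9.87 CPM, the glutamate transporter gene SLC17A6 (ENSDARG00000041150) at 72.9 ± 3.71 CPM, CHAT, which makes acetylcholine, at 9.45 ± 0.84 CPM, TH, of the dopamine pathway, at 3.81 ± 0.19 CPM and TPH2, of the serotonin pathway, at 3.09 ± 0.83 CPM. These transmitter genes were picked out after their values were seen.

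Glia and neural progenitors took 0.160% ± 0.00709 of the reads. FABP7 (ENSDARG00000007697), a fatty acid binding protein of radial glia, stood at 469, 404 and 350 CPM, highest in Control 1 and lowest in Control 3. The receptor gene NOTCH3 stood at 385, 354 and 401 CPM and the intermediate filament gene GFAP at 237, 236 and 241 CPM. Myelin genes took 0.0147%, with mbpb, a myelin basic protein gene, at 55.5, 57.6 and 55.2 CPM. Pigment cell genes took 0.116% ± 0.00395. The melanin enzyme genes DCT and TYRP1 (ENSDARG00000056151) averaged 199 ± 8.31 and 166 ± 15.2 CPM, and pmela, a scaffold protein of the melanosome, stood at 179, 142 and 155 CPM, with Control 1 on top.

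Organs of the inner ear, the skin surface and the gut had smaller shares. The ear and lateral line list took 0.0567% ± 0.000752 (0.0371% with exact symbols only), led by stm (starmaker, a matrix protein of the otoliths) at 158, 176 and 163 CPM. Ionocytes, the salt-transporting cells of the skin, took 0.147% (0.0501% with exact symbols only), with the carbonic anhydrase gene ca2 at 180, 172 and 188 CPM. The hatching gland, which dissolves the egg shell, still had reads of its enzymes, with he1.1 at 44.5, 39.2 and 42.2 CPM and he1.2 at 23.1, 22.5 and 25.8 CPM. Its list took 0.031%, of which XBP1, a regulator of secretory cells that is also used elsewhere, gave 59.0%. The pronephros, the embryonic kidney, took 0.0564% (0.0326% with exact symbols only), with podxl, a surface protein of podocytes and vessels, at 122.55 ± 7.3 CPM.

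The endocrine pancreas list took 0.0502% of the reads, but NEUROD1, a transcription factor shared with neurons, gave 49.0% of it at 256, 238 and 244 CPM. The hormone genes ins (insulin) and GCG (glucagon) stood at 8.1 ± 0.89 and 7.09 ± 0.85 CPM and were picked out after their values were seen. The matched digestive enzymes of the exocrine pancreas were near the limit of detection, while the listed try, ctrb1 and cpa4 were not matched. PTF1A, the transcription factor of its progenitors, stood at 7.28, 6.23 and 5.35 CPM, CPA1 (ENSDARG00000021339), a carboxypeptidase, at 2.29, 2.15 and 2.1 CPM and prss1, trypsin, at 1.14, 1.04 and 0.80 CPM. Of the 18 genes of that list, 15 averaged under 1 CPM. The intestine list took 0.0228% (0.0127% with exact symbols only), led by the fatty acid binding proteins FABP1 (ENSDARG00000059227) at 83.2 ± 5.89 CPM and FABP2 at 46.3 ± 5.81 CPM. Pituitary and hypothalamic hormones took 0.000928%, with prl, prolactin, at 1.87, 2.15 and 1.59 CPM. No read of fshb or kiss1 was counted in any vial.

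Genes of the egg and of the gonad were nearly without reads, and most listed genes of the early embryo had few. None of the 15 vitellogenin and egg genes reached 1 CPM in all vials, and the list took 0.000395%, 0.000346% and 0.000456% of the reads. zp3b, an egg coat gene, averaged 0.89 ± 0.17 CPM and vtg1, a yolk precursor made in the adult female, 0.68 ± 0.32 CPM, while vtg6 and zp2.3 had no read. The germ cell list took 0.000922%, with the RNA helicase gene DDX4, also known as vasa, at 1.66, 1.94 and 2.1 CPM and NANOS3 at 1.66, 1.32 and 1.16 CPM. The early embryo list took 0.00717%, with 7 of its 18 genes at 1 CPM or more in every vial and 11 averaging under 1 CPM. Within it, dlc, a Notch ligand also used in neurogenesis, stood at 43.6, 43.2 and 44.0 CPM and gave 60.7% of the list. No read was counted for ndr1 and mespab. The 49 olfactory and trace amine receptor genes with a symbol took 0.000139%, 23 had no read, and none reached 1 CPM on average. With a pooled total of 37887070 reads, a gene without a read in any vial may still stand at up to 0.0792 CPM, counting error alone considered.

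**Figure D2:**
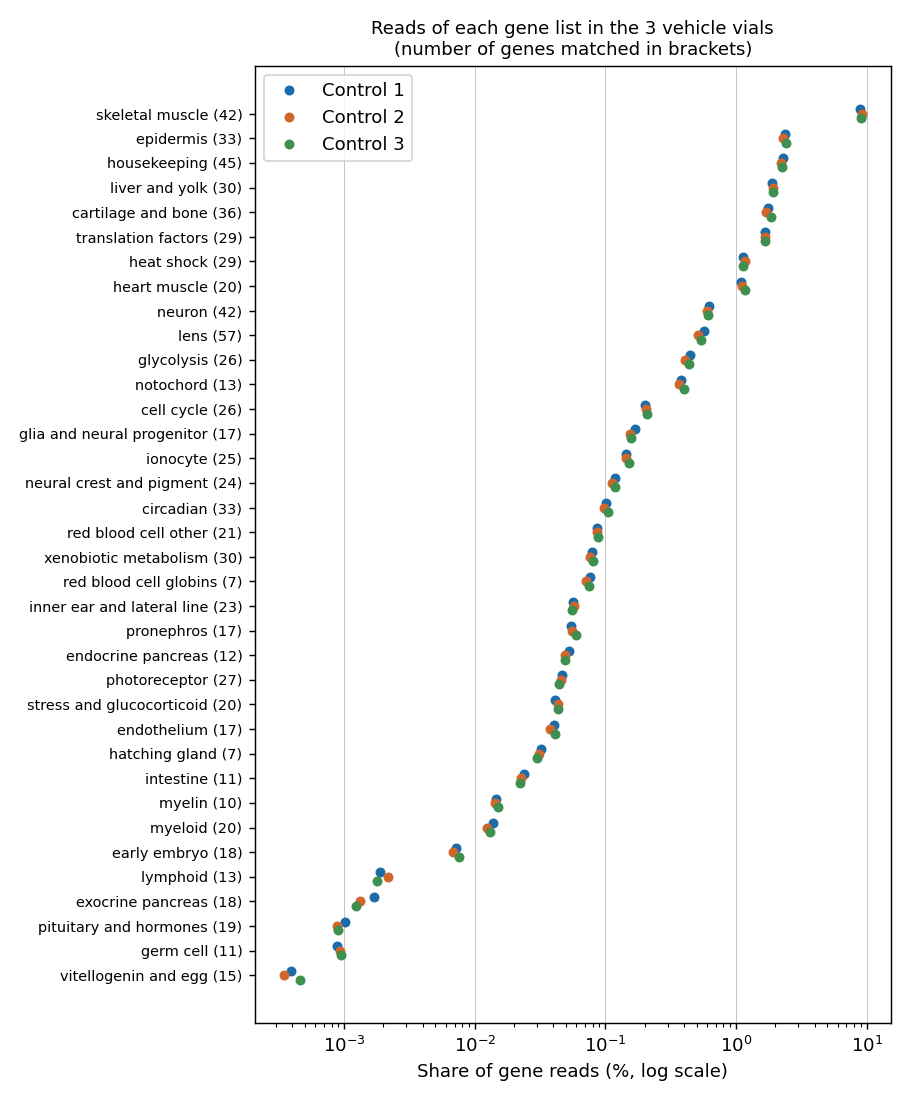
Share of gene reads (%, log scale) taken by each of the 36 gene lists, with 1 point for each vehicle vial and the number of matched genes in brackets. The lists run from 9.05% for skeletal muscle to 0.000399% for vitellogenin and egg genes, and the vials lie close together in nearly every list.

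Genes that every cell needs formed further groups. The 13 protein-coding genes of the mitochondrial genome that carry a symbol took 4.07%, 3.99% and 4.03% of the reads. After MT-CO1, the oxidase subunit MT-CO3 stood at 4781, 4835 and 4691 CPM and cytochrome b, MT-CYB, at 4279, 4057 and 4199 CPM. MT-ND5, of complex I, averaged 3190 ± 43.1 CPM and MT-ATP6, of the ATP synthase, 3045 ± 88.7 CPM. These subunits are cut from shared transcripts and differ in length. MT-CO2 was uneven, with 3159 CPM in Control 1, 2439 CPM in Control 2 and 2812 CPM in Control 3, and was picked out after its values were seen. The partners encoded in the nucleus, 86 genes of the respiratory chain and ATP synthase, took 0.678%, 0.630% and 0.637% of the reads, led by ATP5F1A (666 ± 45.6 CPM) and ATP5F1B (623 ± 45.4 CPM), the catalytic core of the ATP synthase. The 65 mitochondrial ribosomal proteins took 0.0997% ± 0.0018, led by MRPL12 at 50.53 ± 10.19 CPM.

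The cytosolic ribosome's 41 large-subunit genes held 1.85% ± 0.044 of the reads and the 33 small-subunit genes 1.24%, 1.15% and 1.17%. RPL4 was even at 1177, 1161 and 1172 CPM, RPLP1, of the stalk, was highest in Control 2 at 1093, 1202 and 1157 CPM, and RPS2 stood at 1119, 1082 and 1101 CPM. All 74 genes had at least 1 CPM in every vial. The translation factors took 1.67% ± 0.00899, of which eef1a1l1 gave 44.9%. Proteasome subunits took 0.257% in 52 genes, with PSMD1 at 142, 140 and 146 CPM. The immunoproteasome subunits PSMB8 and PSMB9, which serve antigen processing, averaged 0.05 and 0.13 CPM and were picked out after their values were seen. psmb11b and PSME4 had no read.

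Because of the labelled temperature, the heat shock genes are given in full ranges. The 29 genes took 1.12%, 1.16% and 1.14% of the reads, and 52.3% of that came from HSPA8 (ENSDARG00000068992), a chaperone that cells make without stress, at 5749, 6295 and 5895 CPM. Without the 10 most-read genes the list took 0.665%. HSP90AB1, the constitutive cytosolic chaperone, stood at 3887, 3741 and 3780 CPM. SERPINH1 (ENSDARG00000019949), the collagen chaperone, stood at 410, 334 and 412 CPM, and hsp90aa1.1, which muscle uses to fold myosin, at 211, 247 and 283 CPM. The genes known for strong induction by heat had few reads: hsp70l stood at 8.21, 7.14 and 8.03 CPM, hsp70.1 at 2.6, 1.8 and 2.53 CPM, and hsp70.3 at 4.37, 3.53 and 7.52 CPM. HSPB1, a small heat shock protein, averaged 22.9 ± 1.84 CPM. These last 4 genes were picked out after their values were seen. No library of embryos at another temperature was analysed here, and the part of temperature in these levels was not tested.

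The spread between vials was small for most genes. The factors that scale the libraries to each other (trimmed mean of M values, TMM) were 1.00, 0.980 and 1.02, and the common biological coefficient of variation (BCV), the relative spread left after counting error, was 6.57% (edgeR). A gene was called beyond counting error where a Poisson fit to its 3 counts gave an adjusted p under 0.05. This applied to 2266 of 18166 genes tested, or 12.5%. In 406 of the called genes, or 2.23% of all genes tested, the highest vial also exceeded the lowest more than 1.5-fold on the TMM scale. The share called followed the number of reads. It was 3.63% between 1 and 10 CPM, 13.8% between 10 and 100 CPM, 50.1% between 100 and 1000 CPM and 94.7% from 1000 CPM, while the median BCV was 9.83%, 6.74%, 5.61% and 5.74% in those classes. A call in a much-read gene can therefore stand for a small difference. The BCV of a single gene is edgeR's tagwise estimate, which is drawn toward the trend of genes with similar reads. It can lie well below or above the gene's own spread, and the class medians are taken over such estimates. The counts of calls fell when a vial was left out, to 1467 and 235 without Control 1, 863 and 117 without Control 2, and 1370 and 237 without Control 3.

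**Figure D3:**
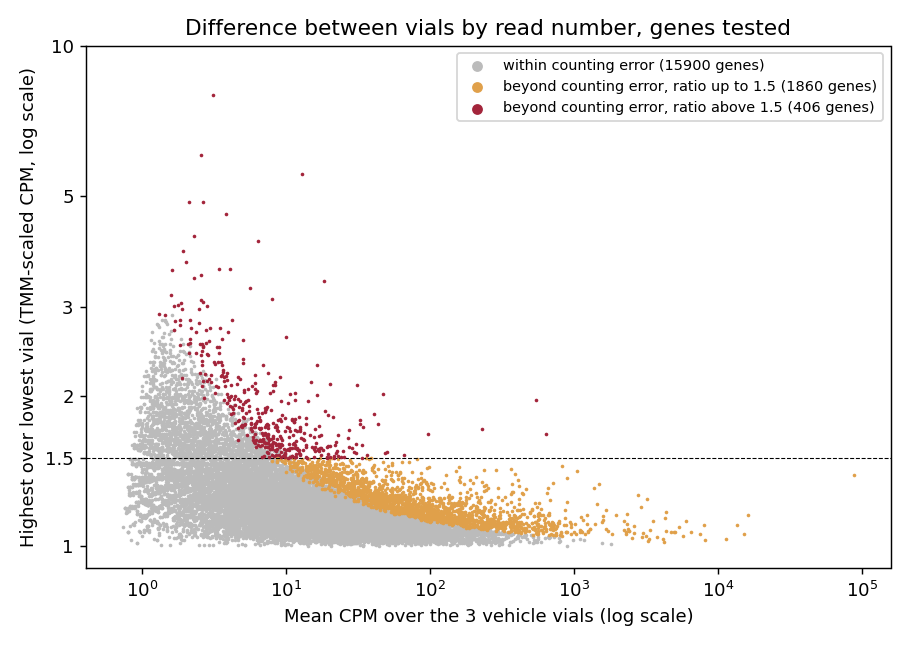
Ratio of the highest to the lowest vehicle vial (TMM-scaled CPM, log scale) against mean CPM (log scale) for the 18166 genes tested, with genes within counting error in grey, those beyond it with a ratio up to 1.5 in orange and those above 1.5 in red. The 406 red genes lie mostly at low read numbers, and some grey genes also lie above the dashed line at 1.5. The ratio that counting error allows narrows as reads grow.

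Counts of calls in the lists are read against those classes. A ratio above 1.5 is counted among called genes only. It was found in 277 of 7903 tested genes between 1 and 10 CPM and in 126 of 8499 between 10 and 100 CPM. Above that it was found in 3 of 1468 tested genes between 100 and 1000 CPM and in none of 76 from 1000 CPM. The median of a list is taken over all its genes, tested or not, and its members can fall in several classes. The share called in the median's class is therefore a rough guide. Of the tested skeletal muscle genes 29 of 40 were beyond counting error and none had a ratio above 1.5, though this list's median of 1008 CPM lies in the class where nearly all genes are called. All 13 mitochondrial genome genes and 35 of 41 large-subunit ribosomal genes were called, again none above 1.5. Their medians of 2803 and 366.5 CPM lie in the classes with 94.7% and 50.1% called. Lens genes were called in 25 of 45 cases, and crygm2d5 was the member above 1.5. The lens median of 40.5 CPM lies in the class with 13.8% called. That median includes 13 genes averaging under 1 CPM, while the most-read lens genes lie in the class with 50.1% called. The liver and yolk list had 15 calls of 24, with ambp above 1.5, and heat shock genes 11 of 29, with hsp70.3 and HMOX1 above it. Their medians of 112 and 23.6 CPM lie in the classes with 50.1% and 13.8% called. None of the 20 tested photoreceptor genes and none of the 12 hox genes was called, with 3 and 1 of them at an unadjusted p under 0.05 (Poisson fit in edgeR). The photoreceptor median of 2.66 CPM lies in the class with 3.63% called and the hox median of 10.7 CPM in the class with 13.8%. With reads this low, the lack of calls says little about evenness. The members above 1.5 were named after their values were seen. Neuron genes were called in 11 of 41 cases with none above 1.5, sox genes in 1 of 22 and circadian genes in 2 of 32. The medians of neuron, sox and circadian genes all lie in the class with 13.8% called. The share called was thus above that of the class for neuron genes and below it for sox and circadian genes. The most-read neuron genes, however, lie in the class with 50.1% called.

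Of the genes with a symbol and at least 10 CPM, the highest dispersion was fitted for KIF3A, a motor protein of cilia and axons. It stood at 5.61, 14.7 and 9.90 TMM-scaled CPM in Control 1, 2 and 3. Its tagwise BCV was 13.8%, while its own spread was 10.0 ± 4.36 CPM (SD, n = 3). Next were rab5b, a GTPase of early endosomes, at 17.3, 9.56 and 22.0, and ACP5, a phosphatase of bone-resorbing cells, at 19.4, 9.13 and 16.5. Control 2 was the high vial for KIF3A and the low vial for both others. slc44a1a, a choline transporter, was high in Control 1 at 14.9, against 8.36 in Control 2 and 7.70 in Control 3. ces3, a carboxylesterase, ran 40.9, 34.1 and 19.5, and afp4 (ENSDARG00000041490) ran 61.6, 30.6 and 50.6, with different vials at the bottom. The others of the 10 were LOXHD1 (ENSDARG00000074638), si:ch211-281l24.3, RHCG (ENSDARG00000003203) and rab1aa, with ratios of the highest to the lowest vial from 1.70 to 2.11.

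At 50 CPM or more the ratio exceeded 1.5 in 6 genes, picked out after their values were seen. myhc4, another fast myosin heavy chain, had the largest, at 386 TMM-scaled CPM in Control 1, 757 in Control 2 and 506 in Control 3, a ratio of 1.96. Its tagwise BCV was 10.7%, while its own spread was 547 ± 179 CPM (SD, n = 3). The genes without a symbol were ENSDARG00000088951, at 805, 480 and 643, ENSDARG00000044212, at 221, 300.3 and 175, and ENSDARG00000067652, at 76.7, 129 and 87.3. MRPL12 ran 39.3, 60.5 and 52.4, and TXNL1, a thioredoxin-like protein, 55.2, 83.8 and 61.3. Control 2 was the highest vial in 5 of the 6. Of the 406 genes called and above 1.5, Control 1 was highest in 126 (31.0%), Control 2 in 175 (43.1%) and Control 3 in 105 (25.9%). Over all 10043 tested genes with at least 10 CPM these shares were 33.3%, 34.2% and 32.6%. These are unlike sets, since 277 of the 406 averaged 1 to 10 CPM and are not among the 10043.

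Families leaned to different vials by small amounts. Among members with at least 10 CPM, 10 of 11 muscle myosin heavy chains and 14 of 19 troponins and tropomyosins were highest in Control 2. The median log2 difference from the mean of the vials was 0.11 there for the myosins, against -0.07 in Control 1 and -0.04 in Control 3. Small-subunit ribosomal genes were highest in Control 1 in 24 of 32 cases, with a median of 0.07, and nuclear respiratory chain genes in 49 of 77 cases, also with a median of 0.07. Collagens were highest in Control 3 in 27 of 40 cases, with a median of 0.05, and crystallins highest in Control 1 in 18 of 32 cases, with a median of 0.08. Claudins, proteins of the tight junction, had a median of 0.09 in Control 1, with 6 of 11 members highest there. The medians of tubulins, keratins and nuclear receptors stayed within 0.02 of the mean in every vial. Single members could differ more. Beyond counting error were 13 of 22 tested keratins, 4 of 19 tubulins and 4 of 53 nuclear receptors, against 12.5% of all genes tested. Members of a family share sequence, cells and library, so these counts are not independent, and no test was made of a family's lean to a vial. Day of spawning, vial, extraction and library cannot be told apart as sources of the spread.

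**Figure D4:**
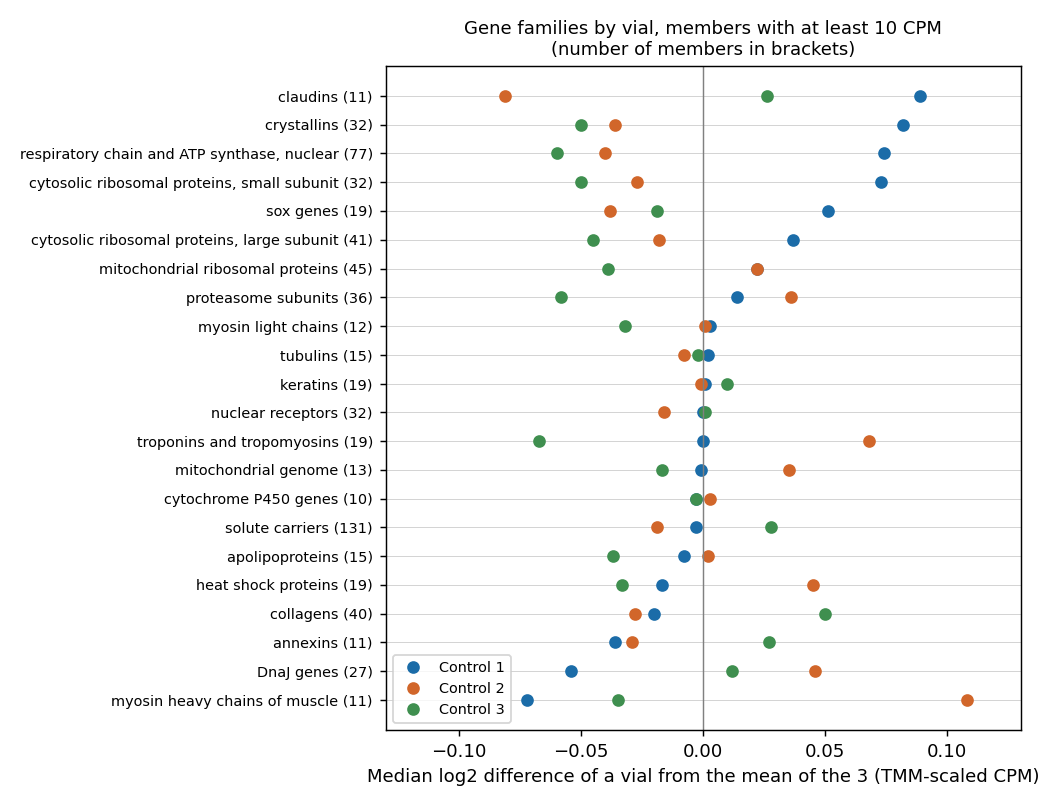
Median over family members of the log2 difference between a vial and the mean of the 3 vehicle vials (TMM-scaled CPM), for families with at least 10 members of 10 CPM or more, whose number is in brackets. Within each vial's points, the one farthest to the right is claudins for Control 1 (0.09), myosin heavy chains for Control 2 (0.11) and collagens for Control 3 (0.05).

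The zebrafish lineage went through an additional genome duplication, and many genes are kept as an a and a b copy. Among symbols that differ only by that suffix after a digit, 300 pairs had at least 1 CPM on average in a member. The a copy had more reads in 155 and the b copy in 145. The reads of the copies differed by a median of 1.76 on the log2 scale of CPM plus 0.1, and at least 4-fold in 142 pairs (47.3%), while 98 pairs lay within 2-fold. These are ratios of reads, which also hold any difference in length between the copies. The same copy led in all 3 vials in 278 pairs, and in all of the 83 pairs with at least 50 CPM in the leading copy. In those 83 pairs the SD of the log2 ratio over the vials had a median of 0.12, far below the median ratio of 2.09.

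Among the 83 pairs with at least 50 CPM in the leading copy, the 6 most unequal in each direction and the 6 nearest to equal are named. eif4a1b, a helicase of translation initiation, averaged 543 ± 39.3 CPM and eif4a1a 0.82 ± 0.19 CPM. nxf1b, an mRNA export factor, averaged 104 ± 4.16 CPM, whereas nxf1a had no read in any vial. plscr3b, tmeff1b, s100a10b and fip1l1b likewise held nearly all reads of their pairs, with log2 ratios of a over b from -7.79 to -6.47. In the other direction hmga1a, a chromatin protein of dividing cells, averaged 2312 ± 61.4 CPM and hmga1b 36.0 ± 0.41 CPM. pdha1a, of the pyruvate dehydrogenase complex, averaged 265 ± 15.9 CPM and pdha1b 0.63 ± 0.25 CPM, and col18a1a, a basement membrane collagen, 473 ± 13.2 CPM and col18a1b 1.68 ± 0.13 CPM. The lead of the a copy was 5.37 to 5.55 on the log2 scale for cry3, selenou1 and muc13.

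Of the same 83 pairs, 6 lay nearest to equal, while some pairs with fewer reads lay nearer. marcksl1a and marcksl1b, actin-binding proteins of the growing nervous system, averaged 679 ± 15.7 and 787 ± 18.7 CPM. hcfc1a and hcfc1b, a chromatin cofactor, averaged 288 ± 11.1 and 253 ± 13.3 CPM, a log2 ratio of 0.19 ± 0.06. atp1b3, zfand5, csnk2a2 and nt5c2 had log2 ratios of a over b from -0.19 to -0.33.

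**Figure D5:**
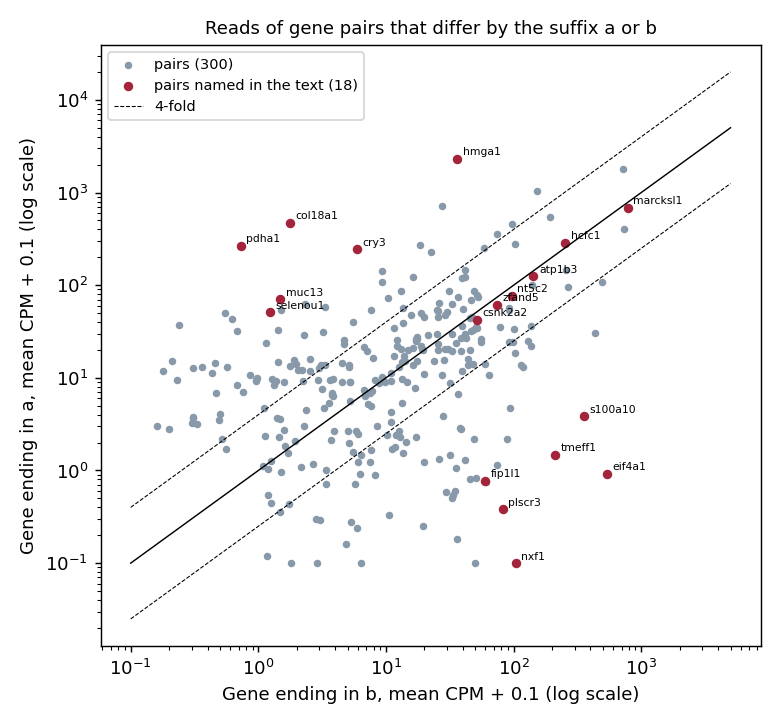
Mean CPM plus 0.1 of the copy ending in a (vertical) against that of the copy ending in b (horizontal), both on log scales, for 300 pairs of symbols, with a solid line of equality and dashed lines at 4-fold. The 18 pairs named in the text are red, and 142 pairs lie at or beyond the dashed lines.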

How the data were processed

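The deposited table holds raw read counts per Ensembl gene, with no normalization by the authors. The submitters' processing notes name CASAVA 1.8, FastQC, TopHat2, HTSeq, edgeR and the build Zv9. Options, the handling of multiply aligned reads and the strand setting are not given in the sources used here, so reads of overlapping genes cannot be told apart. Totals of 9620666 to 14435626 reads set the precision, and the 3-read limit covers counting error only.

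Identifiers were given symbols through the gene table of the reference. Of 921 listed symbols 763 were matched to 818 genes, 211 of them through the capital symbol left without the duplicate suffix, and 3172 genes share a symbol. Families were matched by symbol patterns that were corrected after values were seen. Members, lists and rules were chosen with earlier results of these data known. By rule the text names the 5 most-read members of a list, members without a read, the 25 most-read genes, the 10 most variable and 18 duplicate pairs; a few genes that the rule picks are not reported here.

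Genes kept by filterByExpr (18166) were scaled by TMM and fitted with an intercept in edgeR 4.0.16 (limma 3.58.1, R 4.3.3). The Poisson deviance was compared with a chi-square distribution with 2 degrees of freedom, with Benjamini-Hochberg adjustment, after tests on simulated data. DESeq2 1.42.0 gave an alternative dispersion. Tables and figures used matplotlib 3.10.9, NumPy 2.4.6 and pandas 2.3.3 under Python 3.11.15. Levels per transcript length and sequences are not reported, since neither lengths nor sequences were at hand.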

Additional observations from a re-analysis of the deposited data

How the results depend on the processing

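No paired analysis was possible because only 1 group was analysed. Levels per transcript length and their alternatives were not run, since no lengths were at hand. Depth limits genes below about 1 CPM, where a few reads decide a value.

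Shares depend on what they are taken over. Without the mitochondrial genome genes, skeletal muscle took 9.43%, liver and yolk 1.98%, neuron 0.634% and epidermis 2.47% of the reads. Without the 10 most-read genes these were 7.28%, 1.34%, 0.743% and 1.02%, with 0.659% for lens and 3.52% for the mitochondrial genome. Without the most-read gene, a setting added after seeing the data, they were 9.93%, 2.08%, 0.668% and 2.60%, with 0.592% for lens and 4.42% for the mitochondrial genome. With exact symbols only, skeletal muscle took 6.81%, liver and yolk 1.74%, lens 0.426%, neuron 0.434% and epidermis 2.298%. Among the other 63 lists and families, 40 moved by more than 1 SD without the mitochondrial genome genes and 62 without the 10 most-read genes. A list that holds none of the genes taken out has its share multiplied by about 1.042 and 1.221 in these settings. Whether it moved then depends only on its SD relative to its share. None moved when a vial was left out, but dropping 1 of 3 values cannot shift their mean by 1 SD, so that setting decides nothing. Of the other 31 lists, 24 moved with exact symbols, by over 1.5 times for heart muscle (0.0444%), notochord (0.0751%), ionocyte (0.0501%), endothelium (0.0195%), intestine (0.0127%), pronephros (0.0326%), inner ear and lateral line (0.0371%), cartilage and bone (1.08%), glycolysis (0.227%) and lymphoid (0.0008%). Without the 10 most-read genes, heat shock (0.665%), keratins (0.968%), muscle myosin heavy chains (1.81%), apolipoproteins (1.06%) and heat shock proteins (0.719%) moved by as much.

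The common BCV was 5.73% to 7.13% with a vial left out. DESeq2 gave a median dispersion of 12.4% as a BCV, a median over genes and so another quantity than the common value. The tagwise BCV of edgeR, also taken as a median over genes, was at most 9.83% in any class of reads. The spread estimated between vials therefore depended on the method. At an adjusted p under 0.01 the calls beyond counting error numbered 1355, and those also above 1.5 numbered 204. Those above 1.5 numbered 131 among genes with at least 10 CPM and 125 with a ratio above 2. With a vial left out, the counts ran from 863 to 1467 and from 117 to 237, with fewer libraries and 1 degree of freedom. The other settings of scaling, filter and thinning gave 1701 to 2492 and 355 to 451.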

Other observations

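The 30 genes listed for sensing and processing foreign compounds took 0.0786% of the reads. ahr2, the aryl hydrocarbon receptor that mediates dioxin effects in zebrafish embryos, stood at 117, 116 and 117 CPM in Control 1, 2 and 3. The second receptor ahr1b stood at 32.95, 30.1 and 34.6 CPM, and the copy ahr1a at 0.31, 0.28 and 0.65 CPM. The receptor's repressor ahrrb averaged 0.19 ± 0.04 CPM. Of the CYP1 enzymes with a symbol in the table, cyp1d1 stood at 11.1, 13.4 and 12.6 CPM and CYP1B1 at 5.92, 4.78 and 7.52 CPM; cyp1a, cyp1c1 and cyp1c2 were not matched to a gene of the table by symbol. The oxidative stress regulator NFE2L2 stood at 74.9, 74.5 and 77.7 CPM, and its targets NQO1 and GCLC averaged 45.2 ± 4.87 and 32.2 ± 1.79 CPM. Over the 60 cytochrome P450 genes, 27 reached 1 CPM in every vial, led by CYP26B1 (60.05 ± 1.08 CPM) and CYP26C1 (20.2 ± 1.27 CPM), which break down retinoic acid.

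Developmental regulators had low shares of the reads. Nuclear receptors took 0.153% of the reads in 59 genes, led by NR2F2 at 260.0, 249 and 261 CPM and NR2F1 (ENSDARG00000052695) at 176.5, 152 and 168 CPM, orphan receptors of vessel and brain patterning. The 23 sox genes took 0.157%, led by SOX4 at 462, 404 and 419.5 CPM and SOX11 (ENSDARG00000077811) at 241, 229 and 255 CPM, both regulators of neural progenitors. The copy sox4a had no read. The 12 hox genes with a symbol took 0.015%, led by hoxc3a at 36.1, 34.1 and 31.4 CPM. Clock genes took 0.101% ± 0.00340 in embryos kept in the dark, led by the cryptochrome gene cry3a at 254, 232 and 246 CPM and the output repressor nfil3-5 at 155, 151 and 156 CPM. Among lysosomal cathepsins, ctsla stood at 717, 801 and 623 CPM and gave 62.8% of the family's reads. The proliferation marker mki67 stood at 498, 513 and 525 CPM and TOP2A, an enzyme of chromosome separation, at 129, 142 and 147 CPM.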
